A study of Mus musculus with 22 samples.

Results

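Gastruloids are aggregates of embryonic stem cells that form, without a uterus, a head-to-tail axis and many of the cell types of the early embryo. The samples described here are gastruloids of mouse embryonic stem cells labelled Hox-/-, from a series on embryo models without Hox function, grown with Activin A and collected at 96 h or at 120 h. They are 4 of the 22 RNA-seq libraries of the series, taken by their labels: 2 at 96 h and 2 at 120 h. The 4 wild-type (wt) Activin A gastruloid libraries of the same table, 2 per time, stand beside them wherever a change over time is said to differ in Hox-/-. All groups share the Activin A treatment and differ in genotype and time. The stem cells of both genotypes were kept beforehand with LIF at 100 ng/ml, the GSK-3 inhibitor CHIR99021 at 3 µM and the MEK inhibitor PD0325901 at 1 µM. The labels call the cells mixed, and give no Activin A dose for the gastruloids, no strain and no number of clones behind either genotype. The labels do not say whether the 2 libraries of a group came from separate cultures, so every p-value measures the spread between these libraries, which may be technical.

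Hox genes encode homeodomain transcription factors that give cells along the head-to-tail axis their position, and they are switched on in an order that follows their place in the clusters. Activin A is a ligand of the Nodal type of receptor and drives cells through the primitive streak state towards mesoderm and endoderm. In the embryo, cells that leave the streak and the tail bud lose pluripotency and epithelial genes, pass through the presomitic mesoderm, where a clock built on Notch, Wnt and FGF signalling runs, and are then cut off as somites.

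Between 96 h and 120 h most listed pluripotency genes (17 of 22), caudal progenitor genes (12 of 17) and epithelial genes (16 of 20) fell in the Hox-/- gastruloids. Most listed genes of the presomitic mesoderm (13 of 16) and of somites (13 of 15 tested) rose. Interferon-response genes (10 of 12) and antigen-presentation genes (10 of 10) fell over the same day. Of 16831 genes tested, 12192 were called (72.4%) at an adjusted p under 0.05 by edgeR's quasi-likelihood test, 5866 of them higher at 120 h (34.9%) and 6326 lower (37.6%). The libraries of the 2 times did not overlap in counts per 1000000 counts of the library (CPM) for 14363 genes (85.3%). With so large a share called, a call alone says little about a gene, and sizes are given throughout. Counts of called list members are to be read against the 34.9% and 37.6%, except where the filter is said to limit that. A change of at least 2-fold was called for 5164 genes (30.7%), 2012 higher (12%) and 3152 lower (18.7%), and the median log2 change over all genes tested was -0.01.

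The libraries held 21387832 and 14953662 counts at 96 h and 11600760 and 10693327 counts at 120 h, so time and depth go together in the samples and cannot be told apart by design. Thinned to about the 9108085 counts of the shallowest library, the table still gave 11016 calls. A level of 3 counts, taken as the floor below which a gene counts as not detected, corresponded to 0.14 to 0.281 CPM in the 4 libraries. Replicates differed by more than counting error: the chi-square of their counts, divided by its degrees of freedom, was 2.53 at 96 h and 1.57 at 120 h. Because each library held RNA of mixed cells, fewer cells of a type and less RNA per cell cannot be told apart in any value below.

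A class of transcript that shares sequence with other genes also differed between the times. Processed pseudogenes, which are intronless copies of messenger RNAs, made up 0.984% and 1.06% of counts at 96 h and 0.572% and 0.579% at 120 h. Of the 1384 processed pseudogenes tested, 1134 were lower at 120 h and 74 higher, with a median log2 change of -3.01. The same class fell in wild type, where its median was -2.39. Noncoding classes went the other way: 129 of 259 genes in the class TEC (transcripts whose annotation awaits experiment) were higher and 10 lower, and 127 of 329 antisense genes were higher and 53 lower. Among the 13801 protein-coding genes tested 5135 were higher and 4927 lower, with a median of 0.015. Over all classes but processed pseudogenes, 5792 of 15447 genes were higher and 5192 lower. A fit on protein-coding genes alone, added after seeing the data, called 10104 of 13792. The part of mapping, read length or sequencing run in the shift of the pseudogenes was not tested, and genes with many such copies, ribosomal proteins and subunits of the respiratory chain among them, are uncertain for that reason.

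**Figure D1:**
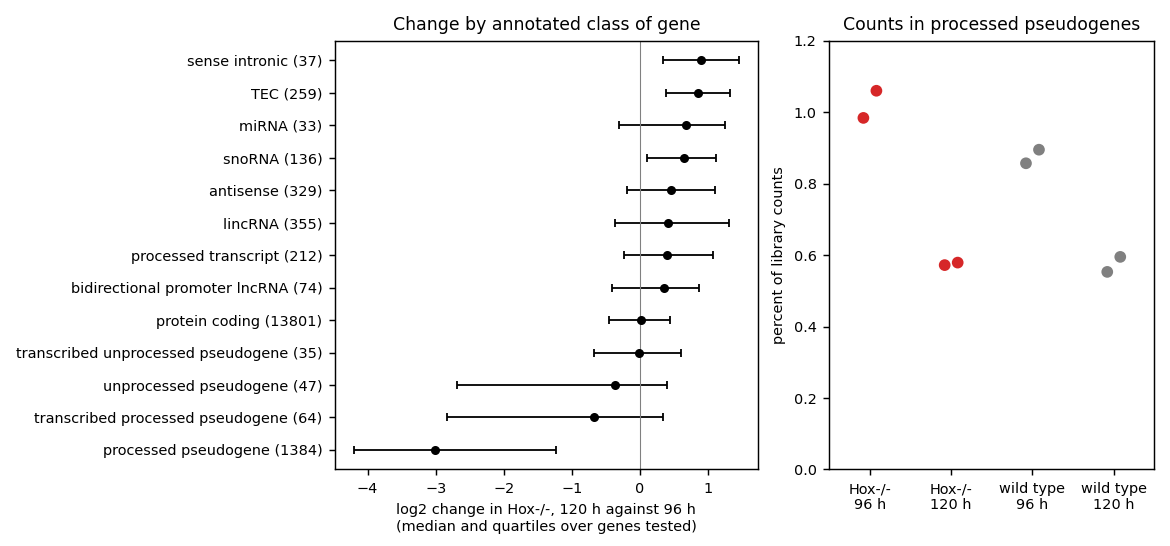
Left, log2 change between 96 h and 120 h in Hox-/- Activin A gastruloids by annotated class of gene (points are medians and bars are quartiles over the genes tested, number in brackets). Right, percent of each library's counts in processed pseudogenes, each point a library, red for Hox-/- and grey for wild type; both genotypes are lower at 120 h, at 0.572% and 0.579% in Hox-/-.

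The targeted genes were read first. The 39 Hox genes summed to 102 and 104 CPM at 96 h and to 63.8 and 69.5 CPM at 120 h in Hox-/-, against 661 and 625 CPM and then 1190 and 1167 CPM in wild type. The sum was therefore 16.0% of the wild-type mean at 96 h and 5.65% at 120 h. The Hox-/- and wild-type libraries did not overlap in this sum at either time. These percentages hold for the sum and not for a typical Hox gene, since Hoxa13 alone gave 39.2 and 39.9 CPM of it at 96 h. At 96 h, 28 of the 39 genes were at the floor in both Hox-/- libraries, and at 120 h 27 were. Hoxa13 (chr6:52257694-52260880, mm10), the most posterior gene of the HoxA cluster, was at 39.2 and 39.9 CPM at 96 h and at 21.7 and 20.5 CPM at 120 h, a log2 change of -0.92 (SE 0.0872, adjusted p = 2.76e-13), whereas wild type held 0.321 CPM on average at 96 h. The labels do not give the ends of the deletions, so counts in a deleted and in a kept exon cannot be told apart here.

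Of the 35 Hox genes tested, 2 were lower, 6 were higher and 27 were not called. The filter used all 8 libraries, and 20 of the 35 were at the floor at both times in Hox-/-. The 6 of 35 can therefore not be read against the 34.9% higher among all genes. In a fit on the 4 Hox-/- libraries alone, 4 Hox genes were tested, 2 higher and 2 lower. The 6 higher genes stayed at low levels. Hoxd13 was the most abundant, at 1.64 and 1.34 CPM and then at 3.62 and 3.83 CPM. Hoxd1 reached 1.47 and 1.12 CPM, and Hoxb9 reached 0.776 and 0.748 CPM. Hoxb8, Hoxc6 and Hoxb4 were at the floor at 96 h and under 1 CPM at 120 h, and Hoxb4 was counted in 1 of the 2 libraries at 120 h only, at 0.468 CPM, and lost its call without that library. In wild type, by contrast, the posterior gene Hoxa9 went from 1.38 to 68.2 CPM and Hoxd4 from 3.38 to 104.9 CPM. In Hox-/- both of these targeted genes were at the floor at both times, so a negative difference follows from the rise in wild type alone. The difference of the time effect between genotypes was called for each (log2 -4.94, adjusted p = 0.0216, and log2 -3.97, adjusted p = 0.00111), values that depend on the prior count at the floor. Hoxa9 lost that call without replicate 2 at 96 h. Genes of the cofactors with which Hox proteins bind DNA were measured beside them. Meis1, one of these, was at 1.64 and 1.27 CPM and then at 86.2 and 81.3 CPM, a log2 change of 5.79. Its exons overlap those of 2 predicted genes. Of 9 cofactor genes 5 were higher and 3 lower, beside 34.9% and 37.6% of all genes tested.

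The genes with the largest changes gave the outline of the day. These 24 genes were picked by size of change and by lack of overlap between the times, so their separation is a description. Replicates lay close together for the 12 higher genes at 120 h, while some lower genes differed between the replicates near the floor, L1td1 among them, at 0.345 and 1.12 CPM. Among the 12 higher genes, Foxc2, Meox1, Mesp2, Heyl, Pax3, Prrx2, Meis1 and Foxc1 encode transcription factors of mesoderm, Pcdh19 encodes a cadherin-type adhesion protein, Col26a1 a collagen, and H19 and Igf2 are neighbours in an imprinted region. Among the 12 lower genes, Pou5f1 and L1td1 are pluripotency genes, and Rtp4, Mx2, Iigp1, Igtp and Bst2 are known interferon-stimulated genes.

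**Figure D2:**
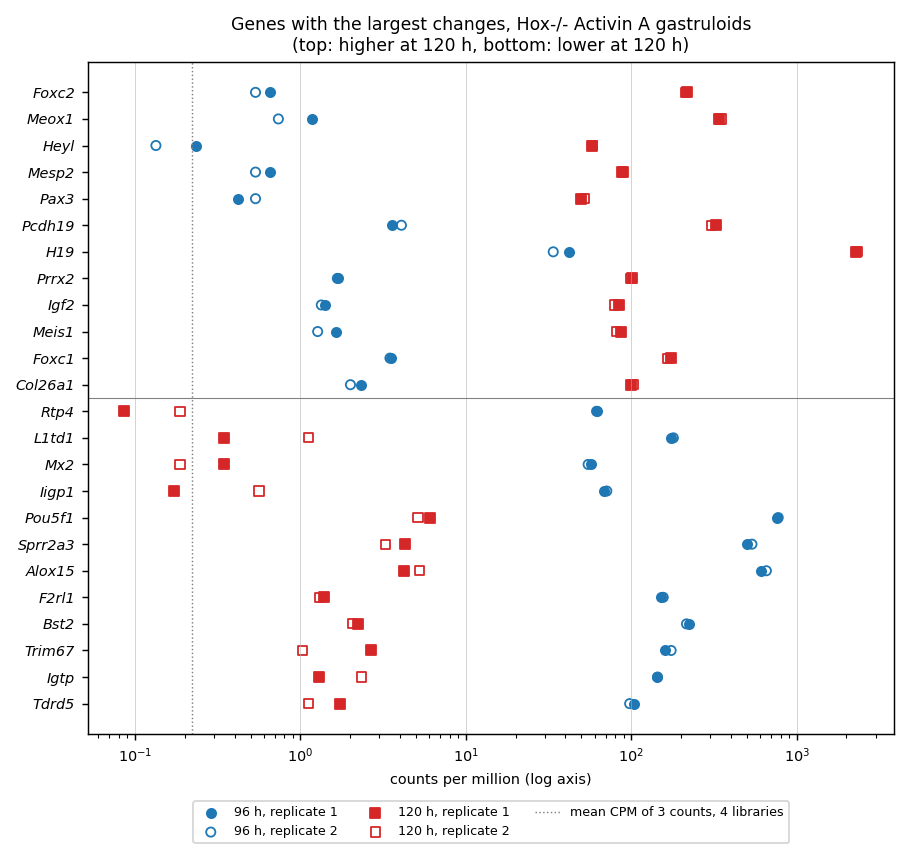
Level in each Hox-/- Activin A library (CPM, log axis) of the 12 genes with the largest called rise and the 12 with the largest called fall between 96 h and 120 h; filled and open symbols are replicates, and the dotted line is the mean level of 3 counts. Foxc2 moves from 0.655 and 0.535 CPM to 218 and 212 CPM, and Pou5f1 from 760 and 774 CPM to 6.03 and 5.14 CPM.

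Pluripotency genes fell by large factors. Pou5f1 encodes the factor Oct4 at the centre of the pluripotency network. It went from 760 and 774 CPM at 96 h to 6.03 and 5.14 CPM at 120 h (log2 -7.11, adjusted p = 2.97e-53). It lies at chr17:35506018-35510772 (mm10), and its exons overlap those of the predicted gene Gm19553. Nanog, its partner in that network, was at 90.2 and 91.8 CPM and then at 1.29 and 1.5 CPM (log2 -6.04). L1td1, an RNA-binding protein of stem cells, went from 174 and 180 CPM to 0.345 and 1.12 CPM (log2 -7.94), and Tdgf1, the Nodal co-receptor, from 237 and 214 CPM to 7.76 and 6.55 CPM (log2 -4.99). Of the 22 pluripotency genes, all tested, 17 were lower, 4 were higher and 1 was not called. Their median log2 change was -2.71, or -2.33 with the 4 genes at the floor at 120 h set to their bound, against -0.01 over all genes tested. The 4 higher members, named after their values were seen, are known outside stem cells as well: Sall4 rose from 157 and 165 CPM to 345 and 344 CPM, and Klf4, Tbx3 and Nr5a2 stayed under 10 CPM.

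The fall went further than in wild type for some of these genes. Pou5f1 in wild type went from a mean of 824 CPM to 24.6 CPM, and its change in Hox-/- was the larger by -1.97 on the log2 scale (adjusted p = 2.18e-17). Nanog differed by -1.997 in the same direction (adjusted p = 1.25e-08). Tdgf1 differed the other way, by 0.88 (adjusted p = 2.25e-05), with a fall in wild type from a mean of 571.6 to 10.25 CPM. For Klf5, at 45.6 and 46.7 CPM and then at 1.81 and 2.53 CPM, no difference from wild type was called (log2 -0.23, adjusted p = 0.55).

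The promoters of the factors at the centre of the network are shown because Oct4 and Sox2 proteins are known to bind beside each other and to act on their own genes. They are RefSeq promoters of the build GRCm38.p6, 250 bases before to 50 after the gene's start, on the gene's own strand: chr17:35505782-35506081 (plus strand) for Pou5f1 and chr6:122707239-122707538 (plus strand) for Nanog. Capitals mark matches, on either strand, to the octamer core TTTGCAT that Oct4 proteins bind, the SOX core CATTGTT or the T-box site core GGTGTGA.
Pou5f1: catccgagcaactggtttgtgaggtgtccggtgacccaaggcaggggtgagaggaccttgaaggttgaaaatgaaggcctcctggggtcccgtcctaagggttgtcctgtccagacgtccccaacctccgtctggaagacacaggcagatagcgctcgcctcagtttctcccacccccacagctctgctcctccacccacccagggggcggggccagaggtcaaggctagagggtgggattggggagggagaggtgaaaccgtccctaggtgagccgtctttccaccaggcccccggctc
Nanog: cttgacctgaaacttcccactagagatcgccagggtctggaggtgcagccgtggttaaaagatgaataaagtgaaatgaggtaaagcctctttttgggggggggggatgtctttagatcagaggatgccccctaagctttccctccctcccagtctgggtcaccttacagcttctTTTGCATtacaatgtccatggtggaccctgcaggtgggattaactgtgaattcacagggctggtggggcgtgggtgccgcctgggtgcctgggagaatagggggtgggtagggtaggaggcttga
The Nanog window held an octamer core beginning 75 bases before the start. The Pou5f1 window held none of the 3 motifs; a second listed Pou5f1 start, at chr17:35508557-35508856, had a SOX core on the opposite strand. Of the 21 called pluripotency genes 12 had a promoter in the table, and 3 of them (Nanog, Sox2 and Zfp42) held an octamer core in at least 1 listed promoter, against 4.63% of all 32851 promoters. That percentage counts single promoters, whereas a gene with several listed has more chances of a match, so the measures are unlike. A match is a run of letters and shows no binding.

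Caudal progenitor genes fell in 12 of 17 cases. T, also called Brachyury, the T-box factor of the streak and notochord, was at 2145 and 2113 CPM at 96 h, and at 168 and 161 CPM at 120 h (log2 -3.71, SE 0.0446, adjusted p = 4.8e-50). Mixl1, a homeodomain factor of the streak, went from 182 and 177 CPM to 16.2 and 14.4 CPM. Nkx1-2, a marker of the caudal epiblast whose exons overlap those of Gm16764, went from 855 and 923 CPM to 108 and 107 CPM. Cdx1, which encodes one of the caudal factors that act on Hox genes in the embryo, went from 557 and 601 CPM to 137 and 146 CPM, and Cdx2 from 302 and 321 CPM to 143 and 135 CPM. The median of the caudal list was -2.05. Its 5 higher members were Cdx4, Wnt5a, Fgf17, Cyp26a1 and Epha5, named after their values were seen.

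The streak list split between directions. Of the 14 genes listed for the streak and mesendoderm, 7 were lower and 6 higher, and the median was -0.22. Lefty2, an inhibitor of Nodal signals, was at 82.2 and 67.5 CPM and then at 408 and 400 CPM (log2 2.40). Cer1, another secreted inhibitor of Nodal, BMP and Wnt, was at 1.31 and 1.14 CPM and then at 21.9 and 21.0 CPM (log2 4.09). Lefty2 in wild type was at 225 and then 240.5 CPM on average, and the difference of the time effects was 2.38 (adjusted p = 3.15e-32). Cer1 in wild type was at 147 and then 107 CPM, and the difference was 4.62 (adjusted p = 9.13e-27). For 12 of the 14 streak genes the difference was positive, and for 1 it was negative, against 18.7% positive and 20.2% negative among all genes tested. The negative one was T, with a deeper fall in Hox-/- (log2 -1.13, adjusted p = 1.71e-21). In the caudal list, Cdx1 fell less than in wild type (log2 2.05, adjusted p = 5.62e-21).

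Segmentation genes rose as a group. The segmentation clock is a set of genes whose transcription switches on and off in waves through the presomitic mesoderm, and Mesp2 marks the place of the next boundary. Dll1, a Notch ligand, was at 75.1 and 65.5 CPM and then at 586 and 587 CPM (log2 3.03, SE 0.0459, adjusted p = 8.44e-46). Notch1, a receptor, went from 89.4 and 86.3 CPM to 695 and 636 CPM (log2 2.90). Both genes have exons that overlap those of other annotated genes. Targets and modulators of Notch rose too: Hey1 went from 8.65 and 7.29 CPM to 203 and 216 CPM, Lfng from 8.56 and 6.75 CPM to 199 and 180 CPM, and Nrarp from 27.4 and 27.4 CPM to 296 and 310 CPM. Heyl, also a target of Notch, went from 0.234 and 0.134 CPM to 58.0 and 58.4 CPM (log2 8.17).

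Mesp2 (chr7:79810727-79813439, mm10) was at 0.655 and 0.535 CPM and then at 89.0 and 87.3 CPM (log2 7.15, adjusted p = 1.02e-41). In wild type it reached a mean of 8.72 CPM, and the difference of the time effects was 3.77 (adjusted p = 3.36e-11). Over the 16 genes of the presomitic and clock list 13 were higher, 2 were lower and 1 was not called, with a median of 2.56 against 0.74 for the same genes in wild type. The lower members were Msgn1, a factor of the posterior presomitic mesoderm, at 121 and 114 CPM and then at 26.5 and 28.5 CPM, and the Wnt co-activator Rspo3. Hes7, an oscillating repressor at the core of the clock, was at 66.9 and 68.6 CPM and then at 68.9 and 68.7 CPM and was not called. A positive difference from wild type was called for 15 of the 16 genes and a negative one for none, against 18.7% and 20.2% of all genes tested. The sum over the list was 946 and 912 CPM at 96 h and 3033 and 2970 CPM at 120 h in Hox-/-, against 880 and 846 CPM and then 921 and 896 CPM in wild type.

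Most somite genes rose. Meox1 (chr11:101877510-101894374), a homeodomain factor of somites, went from 1.17 and 0.736 CPM to 338 and 349 CPM (log2 8.41, adjusted p = 6.16e-52). Foxc2 (chr8:121116171-121118895) and Foxc1 encode forkhead factors that are needed together for somites. Foxc2 was at 0.655 and 0.535 CPM and then at 218 and 212 CPM (log2 8.44), and Foxc1 at 3.51 and 3.48 CPM and then at 174 and 166 CPM (log2 5.58). Pax3, the factor of the dermomyotome and of the dorsal neural tube, went from 0.421 and 0.535 CPM to 49.5 and 52.4 CPM (log2 6.72). Of the 18 listed somite genes 15 were tested; 13 of these were higher and none lower by the same test. The 3 genes that were not tested for low counts were Nkx3-2, Myod1 and Myog, the last 2 being factors of muscle, and Pax1 of the sclerotome and Myf5 of muscle were tested but not called. The list summed to 30.1 and 28.4 CPM and then to 1169 and 1168 CPM.

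Somite genes rose in wild type too, to 782 and 756 CPM in sum. A positive difference was called for 6 of the 15 tested members and a negative one for 2, against 18.7% and 20.2% of all genes tested. Meox1 reached 284 CPM in wild type, and its change differed by 2.83 (adjusted p = 2.52e-16). No difference was called for Foxc2 (log2 0.90, adjusted p = 0.0839) or Pax3 (log2 0.54, adjusted p = 0.347).

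**Figure D3:**
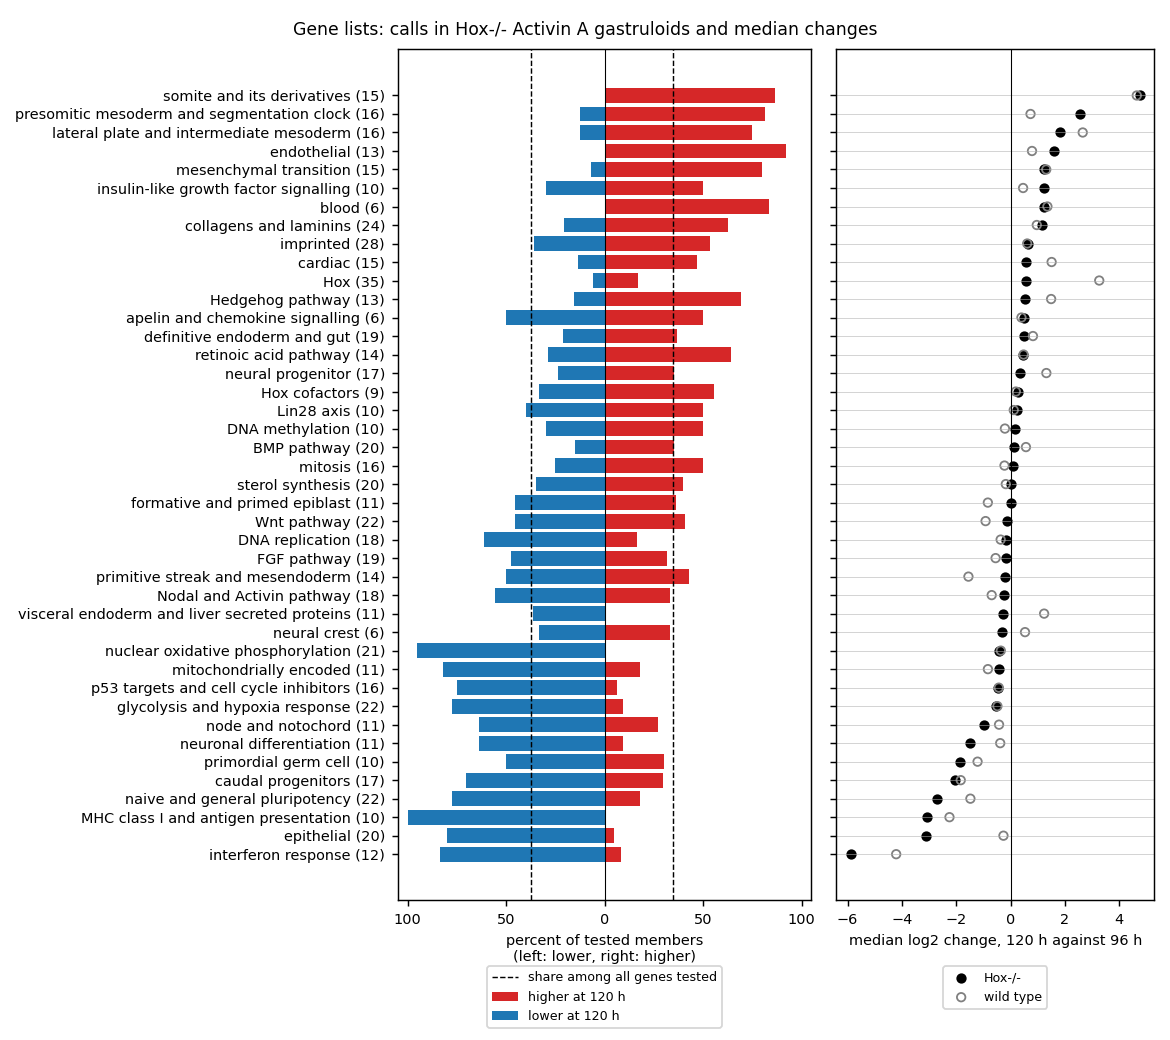
Left, percent of each list's tested members (number in brackets) that were called higher or lower at 120 h in Hox-/- Activin A gastruloids, with dashed lines at the shares among all genes tested (34.9% and 37.6%). Right, median log2 change of the same members in Hox-/- (filled) and wild type (open); the epithelial list stands at -3.11 in Hox-/- and -0.26 in wild type, and the presomitic list at 2.56 and 0.74.

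Retinoic acid is made in somites and opposes FGF and Wnt signals from the tail bud. Aldh1a2, its synthesising enzyme in the trunk, was at 19.1 and 16.7 CPM and then at 273 and 273 CPM (log2 3.90, adjusted p = 1.5e-45), a rise larger than in wild type by 2.82 (adjusted p = 1.44e-31). Stra6, the receptor that takes up retinol, went from 6.08 and 6.82 CPM to 112 and 108 CPM. The binding protein Crabp1 rose from 7.34 and 5.75 CPM to 77.6 and 70.8 CPM, and Crabp2 fell from 98.6 and 94.5 CPM to 38.3 and 39.7 CPM. In all 9 of 14 tested members were higher and 4 lower, beside 34.9% and 37.6% of all genes tested.

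Members of the FGF and Wnt pathways went both ways. The ligand gene Fgf8 was at 226 and 211 CPM and then at 52.5 and 50.7 CPM (log2 -2.10), and Wnt3a at 98.4 and 99.8 CPM and then at 22.4 and 23.3 CPM (log2 -2.13). The Wnt target Sp5 fell from 125 and 133 CPM to 18.45 and 18.98 CPM. Fgfr1, a receptor, went from 316 and 325 CPM to 755 and 726 CPM, Lef1, a transcription factor of the Wnt pathway, from 179 and 188 CPM to 415 and 412 CPM, and the Wnt inhibitor Nkd2 from 7.67 and 7.36 CPM to 207 and 193 CPM (log2 4.71). Lef1 fell in wild type, from 122 to 85.7 CPM on average, and the difference was 1.74 (adjusted p = 5.25e-28). For Nkd2 it was 3.13 (adjusted p = 2.64e-24). Of 22 Wnt pathway genes 9 were higher and 10 lower, beside 34.9% and 37.6% of all genes tested. Of 19 FGF pathway genes 6 were higher and 9 lower, so members of each list moved both ways.

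Activin A signals through the Nodal pathway, which holds its own inhibitors. Fst, which encodes follistatin, the protein that captures activin, was at 803 and 713 CPM and then at 30.8 and 28.6 CPM (log2 -4.69, SE 0.0602, adjusted p = 6.63e-49). Its fall was deeper than in wild type by -2.71 (adjusted p = 2.66e-31), where it kept a mean of 145 CPM. Foxh1, the DNA-binding partner of the signal's Smad proteins, went from 133 and 137 CPM to 55.2 and 51.5 CPM, and Smad3 from 52.9 and 55.2 CPM to 131 and 126 CPM. Of 18 tested pathway members 10 were lower and 6 higher, beside 37.6% and 34.9% of all genes tested. In the BMP pathway, 10 of 20 tested members were not called, 7 were higher and 3 lower, beside the same shares. Bmp4 fell from 47.8 and 49.6 CPM to 12.3 and 12.4 CPM.

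Most Hedgehog pathway genes rose. Boc, a co-receptor, was at 8.79 and 7.82 CPM and then at 74.7 and 72.1 CPM. Of 13 tested members 9 were higher and 2 lower, beside 34.9% and 37.6% of all genes tested. Gli1 and Ptch1, known targets of the pathway, rose less than in wild type. Gli1 was at 3.27 and 2.14 CPM and then at 14.6 and 17.5 CPM, and Ptch1 at 27.5 and 28.6 CPM and then at 62.0 and 55.5 CPM. Wild type reached 254 CPM of Gli1 and 419 CPM of Ptch1, and the differences were -0.52 (adjusted p = 0.0211) and -1.27 (adjusted p = 4.1e-18). The ligand gene Shh reached 0.259 and 0.468 CPM in Hox-/-.

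Epithelial genes fell as a group, and most fell further than in wild type. Cdh1, which encodes E-cadherin (chr8:106603351-106670246), went from 302 and 320 CPM to 9.48 and 10.1 CPM (log2 -5.004, adjusted p = 2.57e-47). Wild type kept a mean of 158 CPM, from 419 CPM, and the difference was -3.52 (adjusted p = 1.07e-33). Epcam, another adhesion protein, went from 120 and 127 CPM to 7.67 and 5.80 CPM. Esrp1, a splicing factor of epithelia, went from 66.7 and 61.9 CPM to 2.93 and 2.71 CPM, and the protease inhibitor Spint1 from 75.5 and 76.7 CPM to 6.90 and 6.92 CPM. Krt18, a keratin of simple epithelia, fell from 29.3 and 28.4 CPM to 5.17 and 4.40 CPM while in wild type it rose from 48.9 to 159 CPM, a difference of -4.23 (adjusted p = 3.33e-31). Of 20 tested epithelial genes 16 were lower, 1 was higher and 3 were not called, and the median was -3.11 against -0.26 in wild type. A negative difference was called for 16 of the 20 and a positive one for none, against 20.2% and 18.7% of all genes tested.

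Mesenchymal genes rose, though less far, with a median log2 change of 1.251 in Hox-/- and 1.315 in wild type. A positive difference from wild type was called for 8 of the 15 and a negative one for 3, against 18.7% and 20.2% of all genes tested. Fn1, encoding fibronectin, was at 591 and 556 CPM and then at 1508 and 1406 CPM (log2 1.33). Snai1 and Zeb1 encode repressors of E-cadherin. Snai1 went from 36.3 and 32.4 CPM to 84.7 and 82.1 CPM and Zeb1 from 13.8 and 15.7 CPM to 68.8 and 59.6 CPM. Altogether 12 of 15 members were higher and 1, Vim, was lower, at 329 and 324 CPM and then at 188 and 187 CPM. N-cadherin, Cdh2, was at 261 and 267 CPM and then at 266 and 275 CPM and was not called. Matrix genes moved in the same direction, with 15 of 24 collagen and laminin genes higher and 5 lower, beside 34.9% and 37.6% of all genes tested. Col2a1, the collagen of cartilage and of the notochord sheath, went from 19.5 and 21.1 CPM to 230 and 228 CPM (log2 3.49).

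Node and endoderm genes split by member. Of 11 node and notochord genes 7 were lower, T among them, and 3 higher, with a median of -0.96. Foxa2, the forkhead factor shared by node and endoderm, was at 9.63 and 9.56 CPM and then at 1.98 and 1.87 CPM, while wild type held 80.8 and then 63.1 CPM; the difference was -1.89 (adjusted p = 4.69e-10). Sox17 stayed under 5 CPM in the 4 Hox-/- libraries. Pkd1l1, a channel subunit of the node's cilia, fell from 7.90 and 8.09 CPM to 0.690 and 1.22 CPM, against a wild-type mean of 46.8 and then 60.8 CPM (difference -3.39, adjusted p = 6.76e-16). Of 19 tested endoderm and gut genes 7 were higher, 4 lower and 8 not called, so 57.9% were called beside 72.4% of all genes tested. That share depends on the filter, which also used the wild-type libraries. With the 4 Hox-/- libraries alone 14 were tested, 7 higher and 4 lower, beside 11715 calls among 15613 genes. The higher ones include genes that mesoderm also uses: Cxcr4, a chemokine receptor, went from 10.1 and 6.62 CPM to 117 and 114 CPM, and Osr1 rose from the floor to 18.2 and 18.9 CPM, at least 109-fold higher. Among 11 tested genes of visceral endoderm and liver, 4 were lower, a share of 36.4% beside 37.6% of all genes tested. None was higher, and 3 of the 11 were at the floor at both times. With the 4 Hox-/- libraries alone only 2 were tested, 1 of them lower, so the share of 36.4% cannot be read against all genes. Of the lower genes, Apoe went from 66.2 and 60.2 CPM to 28.0 and 26.5 CPM. Apob, Ttr and Cubn had 16 counts or fewer in every Hox-/- library.

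Most listed genes of endothelium and lateral plate rose. Kdr, the receptor that marks endothelial precursors, was at 3.09 and 2.41 CPM and then at 44.7 and 46.1 CPM (log2 3.9956). Tie1, a receptor of endothelium, had no count at 96 h and 2.33 and 2.53 CPM at 120 h, at least 14.2-fold higher. Altogether 12 of 13 tested endothelial genes were higher and none lower, and the list summed to 46.5 and 48.8 CPM and then to 128 and 130 CPM. Runx1, a factor of blood formation, was at 0.561 and 0.736 CPM and then at 10.4 and 8.51 CPM. Of 6 tested blood genes 5 were higher and none lower, and the 5 listed globin genes had no count in either library at 120 h. Cardiac genes summed to 84.3 and 81.9 CPM at 120 h from 36.3 and 37.7 CPM, with 7 of 15 tested members higher and 2 lower. That is 60% called, beside 72.4% of all genes tested, but the filter also used the wild-type libraries. With the 4 Hox-/- libraries alone 9 cardiac genes were tested, 6 higher and 2 lower, beside 11715 calls among 15613 genes. The heart factor Nkx2-5 reached 0.345 and 0.187 CPM. Foxf1 of the lateral plate went from 1.496 and 1.47 CPM to 32.2 and 31.5 CPM, and 12 of 16 tested members of that list were higher.

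Neural genes did not move together. Sox2, the factor of neural and pluripotent cells, fell from 51.0 and 49.5 CPM to 17.4 and 15.8 CPM and Sox3 from 32.5 and 37.6 CPM to 3.19 and 4.21 CPM. Wild-type Sox2 was at 31.6 and then 43.1 CPM, a difference of -1.99 (adjusted p = 7.45e-21). Of 17 tested progenitor genes 6 were higher, 4 lower and 7 not called, so 58.8% were called beside 72.4% of all genes tested. That share depends on the filter, which also used the wild-type libraries. With the 4 Hox-/- libraries alone 12 were tested, 6 higher and 4 lower, beside 11715 calls among 15613 genes. Irx3, one of the higher, is used by mesoderm too (log2 2.02). Genes of neuronal differentiation fell in 7 of 11 tested cases and rose in 1. Stmn2, a protein of growing neurites, went from 74.6 and 70.5 CPM to 6.98 and 6.92 CPM.

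Imprinted genes went both ways, and a pair of neighbours rose by large factors. H19 (chr7:142575529-142578143), a noncoding RNA expressed from the maternal copy and host of the microRNA Mir675, was at 42.2 and 33.8 CPM and then at 2279 and 2342 CPM (log2 5.89, SE 0.056, adjusted p = 5.89e-54). Igf2, its neighbour, a growth factor expressed from the paternal copy, was at 1.40 and 1.34 CPM and then at 84.9 and 79.4 CPM (log2 5.88). Its exons overlap those of Igf2os and Gm49394. By the authors' FPKM, which scales by length of transcript, Igf2 was at 7.64 and 7.98 and then at 380 and 377. H19 was at 1174 and 1228 FPKM at 120 h, so the level of Igf2 beside H19 depends on the measure. H19 and Igf2 both rose more than in wild type, by 1.13 (adjusted p = 5.41e-13) and 1.49 (adjusted p = 3.34e-06). Over 28 imprinted genes 15 were higher and 10 lower, with a median of 0.64, beside 34.9% and 37.6% of all genes tested. Igfbp3, which encodes a protein that holds insulin-like growth factors in the medium, fell from 990 and 971 CPM to 23.8 and 20.01 CPM (log2 -5.50). Igfbp5 rose from 6.64 and 8.29 CPM to 81.7 and 83.6 CPM, less than in wild type, which reached 783 CPM (difference -2.18, adjusted p = 2.75e-19). Hmga2, a chromatin protein repressed by let-7 microRNAs, went from 84.2 and 79.6 CPM to 1067 and 1054 CPM (log2 3.67), while Lin28a, which blocks let-7 maturation, fell from 817 and 870 CPM to 312 and 325 CPM (log2 -1.42).

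Interferon-response genes fell in 10 of 12 cases. Type I interferons switch on these genes through transcription factors that bind a repeated GAAA element. Rtp4 was at 61.9 and 61.7 CPM and then at 0.0862 and 0.187 CPM, at the floor, which makes it at least 229-fold lower. Ifit1, an antiviral protein, went from 48.2 and 45.1 CPM to no count in either library, at least 173-fold lower. Bst2, which tethers virus particles, went from 223 and 216 CPM to 2.24 and 2.06 CPM (log2 -6.68, adjusted p = 1.6e-46). Isg15, a ubiquitin-like protein, went from 123 and 118 CPM to 2.07 and 1.496 CPM (log2 -6.08). Of the 12 genes 10 were lower, 1 was higher and 1 was not called. The median was -5.89, or -4.61 with the 4 genes at the floor at 120 h set to their bound. It was -2.89 over the 6 genes with at least 10 counts in every library, -2.97 with log2(FPKM + 1) and -4.04 with log2(FPKM + 0.1). The higher one was Ifitm1, at 86.0 and 70.8 CPM and then at 418 and 396 CPM; Ifitm2 was not called. Ifitm1 is known in early mesoderm as well.

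Antigen presentation fell with them. H2-K1, a class I heavy chain, was at 94.8 and 91.5 CPM and then at 14.1 and 13.8 CPM, and Psmb8, a subunit of the immunoproteasome, at 91.7 and 80.2 CPM and then at 4.22 and 4.68 CPM. All 10 genes of that list were lower, with a median of -3.08. The class I heavy chain genes resemble one another, so reads may be split between them. These genes fell in wild type also, from lower starting levels: Isg15 from 48.3 to 0.818 CPM, with no difference called (log2 -0.14, adjusted p = 0.85), and Bst2 from 130 to 10.3 CPM, a shallower fall (difference -2.95, adjusted p = 6.78e-17). Iigp1, an interferon-inducible GTPase, differed most, falling from 68.0 and 71.2 CPM to 0.172 and 0.561 CPM in Hox-/- and from 16.5 to 7.19 CPM in wild type (difference -6.31, adjusted p = 3.17e-22).

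The promoters of Isg15 and Bst2 are shown because these genes share the element named above. They are RefSeq promoters of GRCm38.p6 on the gene's strand, at chr4:156200769-156201068 (minus strand) and chr8:71537423-71537722 (minus strand). Capitals mark matches on either strand to the interferon-stimulated response core GAAANNGAAA, a motif added after the data were seen, and to the 3 motifs above.
Isg15: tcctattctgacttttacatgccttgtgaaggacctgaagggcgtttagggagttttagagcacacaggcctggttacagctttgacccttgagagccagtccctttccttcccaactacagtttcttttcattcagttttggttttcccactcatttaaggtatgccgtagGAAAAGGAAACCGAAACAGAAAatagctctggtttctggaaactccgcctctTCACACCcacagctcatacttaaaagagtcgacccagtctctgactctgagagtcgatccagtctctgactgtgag
Bst2: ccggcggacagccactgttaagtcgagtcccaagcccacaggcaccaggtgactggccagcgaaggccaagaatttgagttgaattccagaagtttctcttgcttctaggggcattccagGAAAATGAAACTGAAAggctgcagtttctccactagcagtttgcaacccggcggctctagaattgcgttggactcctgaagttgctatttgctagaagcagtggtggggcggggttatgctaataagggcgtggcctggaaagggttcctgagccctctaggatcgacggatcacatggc
In the Isg15 window 3 overlapping matches began 78, 72 and 66 bases before the start, and the later capitals are a T-box site core on the opposite strand that overlaps none of them. The Bst2 window held 2 overlapping matches, beginning 130 and 124 bases before the start. Of the 11 called genes of the interferon list 10 had a promoter in the table, and 7 of them (Bst2, Ifit1, Ifit3, Ifitm3, Isg15, Oas1a and Rsad2) held the element in at least 1 listed promoter, against 3.44% of all promoters. Here too the percentage counts single promoters and the list counts genes, which are unlike measures. The match describes the letters only.

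Glycolysis genes were mostly lower. Slc2a1, the main glucose importer, was at 1376 and 1527 CPM and then at 369 and 357 CPM (log2 -2.02), deeper than in wild type by -1.67 (adjusted p = 1.62e-28). Of 22 glycolysis and hypoxia genes 17 were lower and 2 higher, with a median of -0.55. Vegfa, an endothelial growth factor, was one of the 2, at 41.1 and 40.0 CPM and then at 113 and 110 CPM. Nuclear genes of the respiratory chain were lower in 20 of 21 cases, with a median of -0.42. With offsets for GC content and transcript length 15 were lower and 4 higher, with a median of -0.22, and Ndufa4, at 294 and 293 CPM and then at 178 and 190 CPM, went from -0.69 to 0.27. Mitochondrially encoded genes made up 0.946% and 0.769% of counts at 96 h and 0.672% and 0.66% at 120 h. The low counts of mt-Co2, mt-Co3 and mt-Atp8, under 12 CPM beside 3256 and 2848 CPM of mt-Co1 at 96 h, mark genes that are known to have near-identical nuclear copies, and they are uncertain.

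Cell cycle genes went both ways. Mki67, the proliferation marker, rose from 139 and 138 CPM to 274 and 274 CPM (log2 0.97). Of 16 mitosis genes 8 were higher and 4 lower, with a median of 0.09, beside 34.9% and 37.6% of all genes tested. Replication genes had 11 of 18 lower and 3 higher, beside the same shares, with a median of -0.18. Pcna went from 357 and 378 CPM to 298 and 297 CPM. Among p53 targets and cell cycle inhibitors 12 of 16 tested were lower and 1 higher, led by Cdkn1a, at 424 and 438 CPM and then at 150 and 154 CPM (log2 -1.52).

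The remaining lists split between directions or rested on few genes. Their counts are to be read against the 34.9% higher and 37.6% lower among all genes tested. Formative epiblast genes had 4 of 11 higher and 5 lower, and germ cell genes 3 of 10 tested higher and 5 lower. All 3 tested trophoblast genes were lower. Neural crest genes had 2 of 6 tested higher and 2 lower. Insulin-like growth factor genes had 5 of 10 tested higher and 3 lower, DNA methylation genes 5 of 10 higher and 3 lower, and Lin28 axis genes 5 of 10 higher and 4 lower. Sterol synthesis genes had 8 of 20 higher and 7 lower, apelin and chemokine genes 3 of 6 each way, and mitochondrially encoded genes 2 of 11 tested higher and 9 lower.

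Set against wild type over all genes, most changes pointed the same way. In wild type 12608 genes were called between the times (74.9%). The 2 genotypes shared 10044 called genes, 9258 of them with the same sign (92.2%), and these comparisons share no library. The difference of the time effects was called for 6544 genes (38.9%), 3141 with a positive difference (18.7%) and 3403 with a negative one (20.2%). Scaled by total counts alone, the share of positive differences was 38.7% in place of 48.0%. Differences of at least 2-fold numbered 577 positive and 1271 negative. Among genes called with the same sign in both genotypes and called in the difference, 1743 had the larger change in Hox-/- and 1448 the smaller. All 786 genes with opposite signs in the 2 genotypes were called in the difference, which their selection as called in both directions makes nearly certain.

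**Figure D4:**
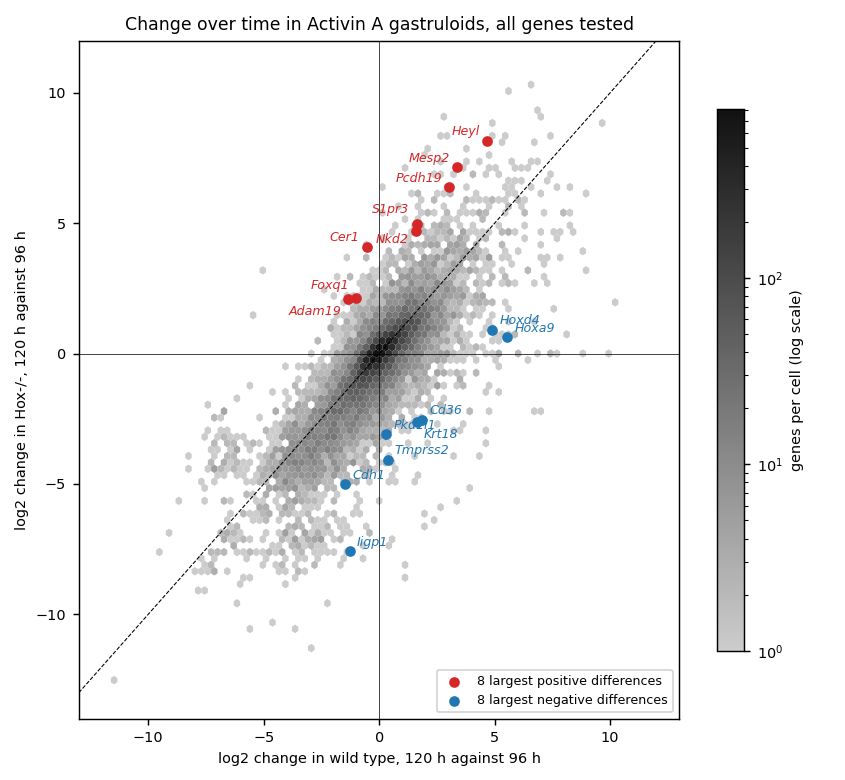
Log2 change between 96 h and 120 h in Hox-/- (vertical axis) against wild-type (horizontal axis) Activin A gastruloids for the 16831 genes tested, shaded by the number of genes per cell on a log scale, with the dashed line of equal change. Coloured points are the 8 largest positive and 8 largest negative differences among genes of at least 50 CPM in a group; Cer1 lies 4.62 above the line and Cdh1 3.52 below it.

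By the authors' FPKM (fragments per length of transcript and depth of library), Eef1a1, a translation elongation factor, led at both times. Its counts went from 12590 and 12390 CPM to 14060 and 14450 CPM, a log2 change of 0.17. Rps14, a ribosomal protein gene with pseudogene copies, went from 1756 and 1549 CPM to 3010 and 3079 CPM (log2 0.86). Rpl13a was lower by counts, from 1235 and 1229 CPM to 1052 and 1061 CPM, and higher by FPKM, so no direction is given for it.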

How the data were processed

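Stranded mRNA libraries were prepared after poly(A) selection, per the labels' protocols, which describe RNA extraction for cell cultures and not for gastruloids. The count table deposited by the authors holds whole, unnormalized counts per Ensembl gene; the FPKM table deposited by the authors holds FPKM values and gene positions. The submitters' processing notes name cutadapt 1.16, STAR, Cufflinks 2.2.1 and the build mm10. The counting tool, its strand setting and the annotation are not given in the sources used here, so genes with near-identical copies or with exons that overlap another gene are uncertain, among them Fst, Lef1, Gli1, Fgfr1, Psmb8, Slc2a1, Hmga2, Lin28a, Fn1, Esrp1, Cdkn1a and those marked in the results. Gene classes, overlaps and printed positions came from the GENCODE M21 annotation, which held 54890 of the 55141 gene identifiers.

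The 8 Activin A libraries, in 4 groups of 2, were fitted together with edgeR 4.0.16 in R 4.3.3: filterByExpr, TMM scaling, 1 coefficient per group, the quasi-likelihood test and Benjamini-Hochberg adjustment over all genes tested. A gene was called at an adjusted p under 0.05. An SE is printed only for genes with many counts at both times. Where a gene had few counts, the SE could fall below counting error. CPM used library totals. A group with 3 counts or fewer in both libraries was at the floor, and a fold against it is a lower bound at the mean floor of that group; intervals and floors cover counting error only. The statistics were tested on simulated data with 200 changed genes. That is far fewer than the 12192 called here, so the simulation does not cover so broad a change. Named genes followed a rule: per direction the 12 called genes with the largest change, no overlap between times and at least 50 CPM; up to 5 called members with the smallest p per list of 43; every tested Hox gene; the 8 largest differences from wild type per sign; and the 5 highest FPKM per time. Members outside the rule were named after their values were seen. The lists and members were chosen with earlier results of these data known. Lists are described by counts and medians, with no test, and some members are not reported here. No label says that replicate numbers pair the samples. The replicate differences at 96 h and 120 h correlated at -0.0243 over genes, which cannot show whether equal numbers share a culture or run.

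Alternatives were RLE scaling, total counts alone, no filter, DESeq2 1.42.0, a minimum of 10 counts per library, the replicate block, thinned counts, limma 3.58.1 on log2(FPKM + 1) and log2(FPKM + 0.1), each Hox-/- library left out, and the 4 Hox-/- libraries alone. Offsets for GC content and length (mgcv 1.9.3) and protein-coding genes alone were chosen after seeing the data.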

Additional observations from a re-analysis of the deposited data

Results flagged for a closer look

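The results below were singled out because the change over time differed between Hox-/- and wild-type Activin A gastruloids by the interaction test in edgeR, which was called for 6544 genes. The 8 largest positive differences among genes of at least 50 CPM in a group, on the log2 scale, were those of Cer1 (4.62), Mesp2 (3.77), Heyl (3.49), the protease gene Adam19 (3.43), the sphingosine phosphate receptor gene S1pr3 (3.35), Pcdh19 (3.34), the forkhead gene Foxq1 (3.13) and Nkd2 (3.13). Adam19, at 36.5 and 28.8 CPM and then at 144 and 143 CPM in Hox-/-, went from 142 to 59.2 CPM in wild type. Foxq1 reached 9.31 and 9.63 CPM in Hox-/- and went from 53.5 to 28.4 CPM in wild type.

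The 8 largest negative differences were those of Iigp1 (-6.31), Hoxa9 (-4.94), the epithelial protease gene Tmprss2 (-4.44), the fatty acid receptor gene Cd36 (-4.41), Krt18 (-4.23), Hoxd4 (-3.97), Cdh1 (-3.52) and Pkd1l1 (-3.39). Hoxa9 and Hoxd4 were at the floor in Hox-/- at both times, so their differences follow from the rise in wild type alone. Hoxa9 lost its call when replicate 2 at 96 h was left out. Tmprss2 fell from 61.9 and 61.1 CPM to 4.14 and 3.18 CPM in Hox-/- and went from 41.9 to 56.9 CPM in wild type. Cd36 fell from 79.1 and 73.7 CPM to 12.8 and 13.8 CPM, and went from 25.9 to 99.9 CPM in wild type. Exons of Adam19, S1pr3, Pcdh19, Foxq1, Hoxa9 and Hoxd4 overlap those of other annotated genes.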

How the results depend on the processing

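The count of genes called between the times, 12192, ran from 9376 with at least 10 counts in every library to 13103 with no filter, and from 11306 to 11615 with a Hox-/- library left out. With the replicate number as a block it was 12200, and 6560 for the difference from wild type. No label says that the numbers pair the samples, and no named gene changed its call under the block. The count for the difference from wild type, 6544, fell to 4092 with DESeq2 and to 4264 with limma on log2(FPKM + 0.1), and ran from 5490 to 6323 with a library left out; the cause was not tested. Its share of positive differences was 59.1% with no filter and 58.1% with log2(FPKM + 0.1). The ratio of the Hox sum at 120 h to 96 h, 0.647, ran from 0.619 to 0.674 with a library left out and was 0.645 by FPKM.

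Rpl13a turned with both FPKM fits (0.157 and 0.158) and (0.245) under offsets for GC content and length, where Dnmt1 (-0.163), Ndufa4 (0.266) and Rplp1 (0.298) also turned and 301 shared calls had the opposite sign; the cause was not tested. Medians turned for the formative epiblast list (-0.017 with at least 10 counts, -0.005 with DESeq2, -0.011 to 0.041 with a library left out, -0.245 with offsets, -0.001 with protein-coding genes), the visceral endoderm list (-1.109 to 0.366) and the neural progenitor list (-0.054 to 0.899) with a library left out, each turned by replicate 1 at 96 h, the Wnt list (0.013 thinned, 0.014 with log2(FPKM + 0.1), -0.353 to 0.065 with a library left out), the Lin28 list (-0.077) and the sterol list (-0.062) with offsets, the apelin list (-0.034 with log2(FPKM + 1)) and the Hox list (-0.777 with at least 10 counts, where 1 gene was tested). Depth limits what can be said below the floor, at which 959 called lower genes stood at 120 h.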
